A study of Mus musculus with 30 samples.

Results

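Peroxisome proliferator-activated receptors (PPARs) are nuclear receptors that bind fatty acids and, as heterodimers with the retinoid X receptor, switch on genes of fat use. In skeletal muscle their classic targets include genes that set the choice between glucose and fat as fuel: brakes on pyruvate oxidation, mitochondrial uncoupling proteins, enzymes that load fatty acids onto coenzyme A or take them off again, and proteins that govern lipid uptake. The 10 genes described here are Pdk4, Ucp2, Ucp3, Angptl4, Acot1, Acot2, Acsl1, Mlycd, Vldlr and Retsat. They were chosen by name and by their response to the diet, and all 10 have an entry among the 16475 gene entries measured. The comparison of the diets was therefore used to select and sort them, and its values are given as a description with no test. The standard errors and intervals printed with these values show their spread only. After selection on the same values the intervals do not have their nominal coverage, so none is read as a test.

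Affymetrix arrays, 1 per mouse, measured RNA from quadriceps muscle of males of the strain C57BL/6J, spelled C56BL/6J in the sample labels. In each of 3 groups there were 10 mice. HF day 56 mice (20 weeks old) ate high fat food for 56 days, LF day 56 mice (20 weeks old) ate low fat food over the same period, and LF day 0 mice (12 weeks old) were killed at its start. All had first eaten a low fat run-in diet for 3 weeks, begun at an age of 9 weeks, and were then killed or assigned to a diet at random. The diet is thus compared at one time point, and LF day 0 differs from the other groups in age as well. All 8 skeletal muscle markers were far above background in every group. In whole muscle, fewer cells of a type and less RNA per cell cannot be told apart.

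Some arrays stood apart irrespective of group. Bacterial control RNAs added to each sample gave a higher 5′ to 3′ signal on 9 arrays than on the other 21, with 3 of the 9 in each group. By limma 3811 entries differed between these array sets, 23.1% of all, so the diet difference of each member is also given within each set. S100a8, a neutrophil gene, exceeded an intensity of 100 on 6 HF day 56, 4 LF day 56 and 7 LF day 0 arrays. Of 8 neutrophil markers, 8 had a higher mean in HF day 56 than in LF day 56 muscle (median difference 1.15, log2). All 8 had a lower mean in LF day 56 than in LF day 0 muscle (median -2.06). By limma 0 passed in either comparison. Mean slow fibre marker levels (log2) spanned 4.15 to 8.97 over HF day 56, 4.32 to 9.67 over LF day 56 and 4.65 to 9.12 over LF day 0 mice. Of 7 slow fibre markers, 7 had a higher mean in LF day 56 than in LF day 0 muscle (median difference 0.81). In HF day 56 muscle 6 were higher than in LF day 0 (median 0.60), and 5 were lower than in LF day 56 (median -0.28). By limma 0 of them passed in these comparisons. Mean adipocyte marker levels averaged 7.06 ± 0.61 in HF day 56, 6.67 ± 0.39 in LF day 56 and 6.22 ± 0.31 in LF day 0 mice (log2, SD, n = 10 each). Of 7 adipocyte markers, 4 were higher in HF day 56 than in LF day 0 mice by limma at an adjusted p below 0.05. The share of all entries called higher was 0.783%. The mean was higher in 5 of the 7 and lower in 2, in this comparison and between the diets alike. Of 7 endothelial markers, 7 had a higher mean in HF day 56 than in LF day 56 muscle (median difference 0.16, log2) and 7 a lower one in LF day 56 than in LF day 0 muscle (median -0.22). Of these Cldn5, a tight junction gene, passed, lower in LF day 56 than in LF day 0 muscle (-0.79, limma adjusted p = 0.0130) and in HF day 56 than in LF day 0 muscle (-0.71, limma adjusted p = 0.0207). The summed intensity of the 7 was 743.3 to 1007.3 over HF day 56 mice, 637 to 974.6 over LF day 56 mice and 723.2 to 1288.5 over LF day 0 mice. The part of these cell types in the results below was not tested beyond the values given.

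A member is said here to answer the diet where at least 9 of the 10 HF day 56 arrays lay on the same side of the LF day 56 mean. By this rule 4 members answered, Retsat, Acot2, Mlycd and Acsl1, all of them higher on the high fat diet. With 1 HF array left out, all of the other 9 were first required to lie on the same side. Only Retsat then answered in 8 of 10 cases. Next, 1 exception among the 9 was allowed, a count added after that result was seen, and the same 4 answered in all 10. Leaving out an HF array does not move the LF day 56 mean. Both outcomes therefore follow from which HF arrays lay above it, the second was fixed in advance, and neither is a check of the 4. Of all entries, 3.25% had at least 9 HF arrays above that mean and 3.1% at least 9 below, where no member lay. Ucp2 and Acot1, each with 8 arrays above, were just outside the threshold, and Acot2, Mlycd and Acsl1, each with 9, just inside. The median difference was 0.19 (log2) over the 10 members and 0.003 over all entries.

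Retsat, the retinol saturase that reduces retinol to dihydroretinol, had the most uniform difference. Its intensity was lowest at 373.8, with a median of 440 and a highest value of 560.8, in HF day 56 muscle, against 311.5, 369 and 442.8 in LF day 56 muscle and 289.4, 325 and 399.4 in LF day 0 muscle. All 10 HF arrays lay above the LF day 56 mean, though the ranges overlapped. The difference between the diets was 0.33 ± 0.07 (log2, SE, 95% interval 0.19 to 0.48), with the fitted mean 26.0% higher. It was 0.34 within the 9 arrays and 0.33 within the 21.

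Acot2 and Mlycd act on fatty acyl and malonyl groups inside the mitochondrion and beyond. Acot2, a mitochondrial thioesterase that frees fatty acids from coenzyme A, ran between 121.2 and 184.5 (median 147) in HF day 56, between 106.1 and 157 (median 135) in LF day 56 and between 87.8 and 151.1 (median 113) in LF day 0 mice. Mlycd, the decarboxylase that breaks down malonyl-CoA and so lifts the block on fatty acid entry, ran between 291.3 and 379.7 (median 335) in HF day 56, between 233.7 and 366.5 (median 307) in LF day 56 and between 225.8 and 360 (median 280) in LF day 0 mice. In both genes 9 HF arrays exceeded the LF day 56 mean and the groups overlapped widely. The differences between the diets were 0.20 ± 0.10 for Acot2 and 0.17 ± 0.07 for Mlycd (log2, SE). Their 95% intervals were -9.1e-05 to 0.40 and 0.02 to 0.32. Within the 9 arrays the differences were 0.18 and 0.16, and within the 21 they were 0.21 and 0.18, in the same order. Without the arrays of S100a8 above 100, that of Mlycd was 0.11. Acot2 and Acot1 are close paralogs with no annotated gene between them on chromosome 12, and whether their probes share signal was not tested.

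Acsl1, the main long-chain acyl-CoA synthetase of muscle, was the least steady of the 4. Its intensities spanned 1924.3 to 3278.4 (median 2408) in HF day 56, 1898.5 to 2513 (median 2257) in LF day 56 and 1669.7 to 2755.8 (median 2140) in LF day 0 muscle. The lowest HF array lay near the lowest LF day 56 array, and the excess was on the upper side. The difference was 0.17 ± 0.09 (log2, SE, 95% interval -0.02 to 0.36), 0.28 within the 9 arrays and 0.12 within the 21. Without the 17 arrays in which S100a8 exceeded 100, which leaves 4 HF and 6 LF day 56 arrays, it was -0.01, and that of Retsat was 0.19.

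**Figure D1:**
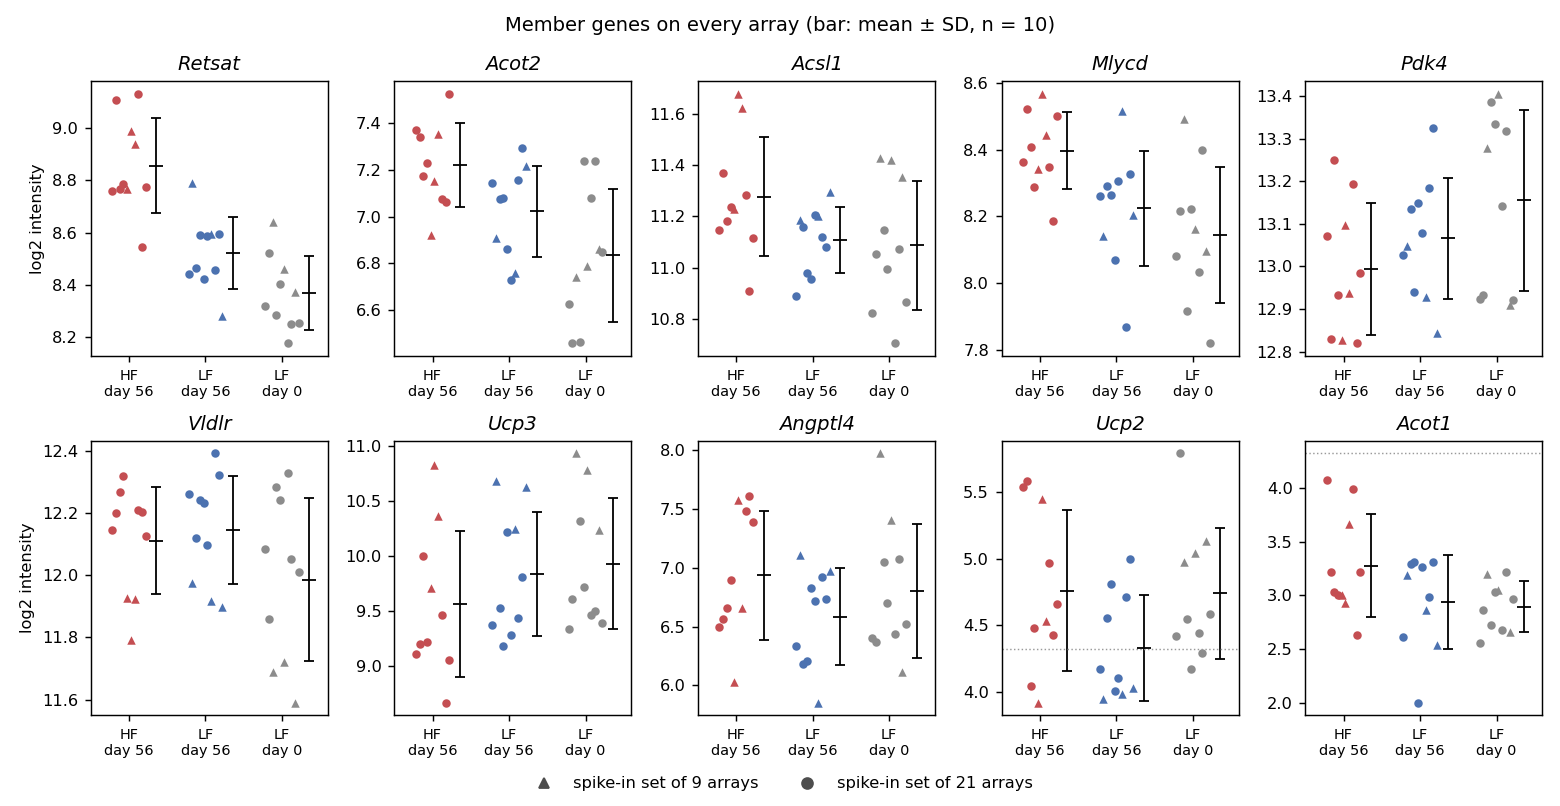
Log2 intensity of each member on all 30 arrays, by group, with triangles for the 9 arrays of high spike-in 5′ to 3′ signal and circles for the other 21; bars are mean ± SD (n = 10) and dotted lines mark an intensity of 20. Retsat has all 10 HF day 56 arrays above the LF day 56 mean, while Acot1 stays below the dotted line on every array.

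Pdk4, Vldlr, Ucp3, Angptl4, Ucp2 and Acot1 did not answer the diet by this rule. Pdk4, the kinase that shuts pyruvate dehydrogenase and spares glucose, ran between 7227.6 and 9747.2 (median 7974) in HF day 56, between 7345.3 and 10258.5 (median 8557) in LF day 56 and between 7695.6 and 10851.9 (median 9484) in LF day 0 muscle. Its difference between the diets was -0.07 (log2, 95% interval -0.23 to 0.08), and 4 HF arrays lay above the LF day 56 mean. Vldlr, a receptor that binds triglyceride-rich lipoproteins, ran between 3549.1 and 5102.9 (median 4620) in HF day 56, between 3813.5 and 5373.7 (median 4631) in LF day 56 and between 3082.3 and 5145.3 (median 4183) in LF day 0 muscle. Between the diets it differed by -0.03 (95% interval -0.22 to 0.15), with 5 HF arrays on each side. For both genes the groups overlapped almost completely, and the intervals are about as wide as those of Acot2, Mlycd and Acsl1. Within the 9 arrays the difference was 0.014 for Pdk4 and -0.05 for Vldlr, and within the 21 it was -0.11 for Pdk4 and -0.03 for Vldlr.

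Ucp3, the uncoupling protein of muscle mitochondria, spread far more. Its mean was 10.49 on the 9 arrays and 9.47 on the other 21 (log2), so part of this spread lay between the array sets. Ucp3 ran between 405.5 and 1818.2 (median 651) in HF day 56, between 582.7 and 1643.1 (median 817) in LF day 56 and between 648.7 and 1963.4 (median 812) in LF day 0 muscle. Its difference between the diets was -0.28 (log2, 95% interval -0.80 to 0.25, array set not in the fit), with 3 HF arrays above the LF day 56 mean. It was -0.22 within the 9 arrays, -0.30 within the 21 and -0.71 without the arrays of high S100a8.

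Angptl4, a secreted inhibitor of lipoprotein lipase, ran between 65.3 and 195.8 (median 110) in HF day 56, between 57.7 and 138 (median 106) in LF day 56 and between 69.3 and 252 (median 97.9) in LF day 0 muscle. Its medians lay close together, and 7 HF arrays exceeded the LF day 56 mean. The difference was 0.35 (log2, 95% interval -0.09 to 0.79), and 0.20 with the adipocyte marker level as a covariate. It was 0.11 within the 9 arrays and 0.45 within the 21.

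Ucp2, the uncoupling protein also found in immune cells, was near background. It ran between 15.1 and 47.9 in HF day 56, between 15.4 and 32 in LF day 56 and between 18 and 55.4 in LF day 0 muscle, and it exceeded 20 on 20 of the 30 arrays. Acot1, a cytosolic thioesterase, reached at most 16.8 in HF day 56, 9.9 in LF day 56 and 9.3 in LF day 0 muscle. It exceeded 20 on 0 arrays, so 9 of the 10 members passed the filter of an intensity above 20 on at least 5 arrays. The differences between the diets, 0.43 ± 0.21 for Ucp2 and 0.34 ± 0.17 for Acot1 (log2, SE), rest on signal at this low level. That of Ucp2 was 0.65 within the 9 arrays, 0.33 within the 21 and 0.22 without the arrays of high S100a8. That of Acot1 was 0.33, 0.34 and 0.23 in the same order, and 0.12 with a pseudocount of 16 added to the intensities.

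**Figure D2:**
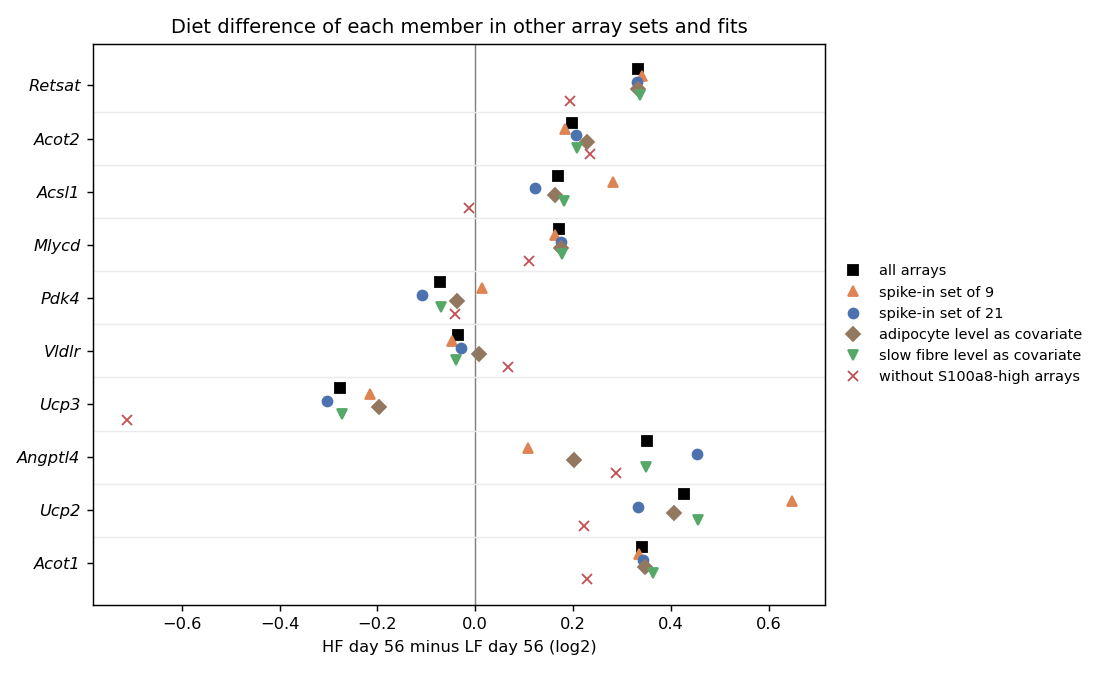
Difference between HF day 56 and LF day 56 (log2, horizontal axis) for each member over all arrays, within each spike-in set, with marker levels as covariates, and without arrays of S100a8 above 100. Retsat, Acot2, Mlycd, Angptl4, Ucp2 and Acot1 lie above 0 in all 6 and Ucp3 below 0. Acsl1 reaches -0.01 without the S100a8-high arrays, and Pdk4 and Vldlr lie on both sides of 0.

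Within groups, the members differed in spread. Among 6844 entries above background, the SD of Ucp3 within groups lay at percentile 97.8, that of Angptl4 at 96.8 and that of Ucp2 at 96.5. Retsat lay at percentile 34.0, Mlycd at 40.1 and Pdk4 at 42.3. These SDs were taken without removing the array set. That of Ucp3 was 0.61 (log2). Its plain SD, taken with the groups not separated and so another measure, was 0.39 over the 9 arrays and 0.39 over the other 21. Among HF mice, replicate 9 had the lowest value of 6 members (Pdk4, Ucp3, Acot1, Acsl1, Mlycd and Retsat) and the highest Angptl4, with the highest adipocyte marker level of its group (8.04, log2) and the lowest slow fibre level (4.15). Replicate 5, with nearly the same slow fibre level (4.19), had the lowest Ucp2, Angptl4 and Acot2 instead. Replicate 10, next in adipocyte level (7.75), had the lowest value of 0 members and the highest Acot2. Replicate 6 had the highest Ucp3, Acsl1 and Mlycd and the lowest Vldlr.

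Between the array sets 3 of 10 members passed, against 23.1% of all entries. Ucp3 averaged 10.49 ± 0.39 on the 9 arrays and 9.47 ± 0.39 on the other 21 (log2, SD), a difference of 1.02 (limma adjusted p = 1.24e-06). Acsl1 was higher by 0.32 (limma adjusted p = 0.000143) and Vldlr differed by -0.36 (limma adjusted p = 5.51e-07), while the other 7 members did not pass. Each group held 3 of the 9 arrays, so the sets are balanced over the diets.

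**Figure D3:**
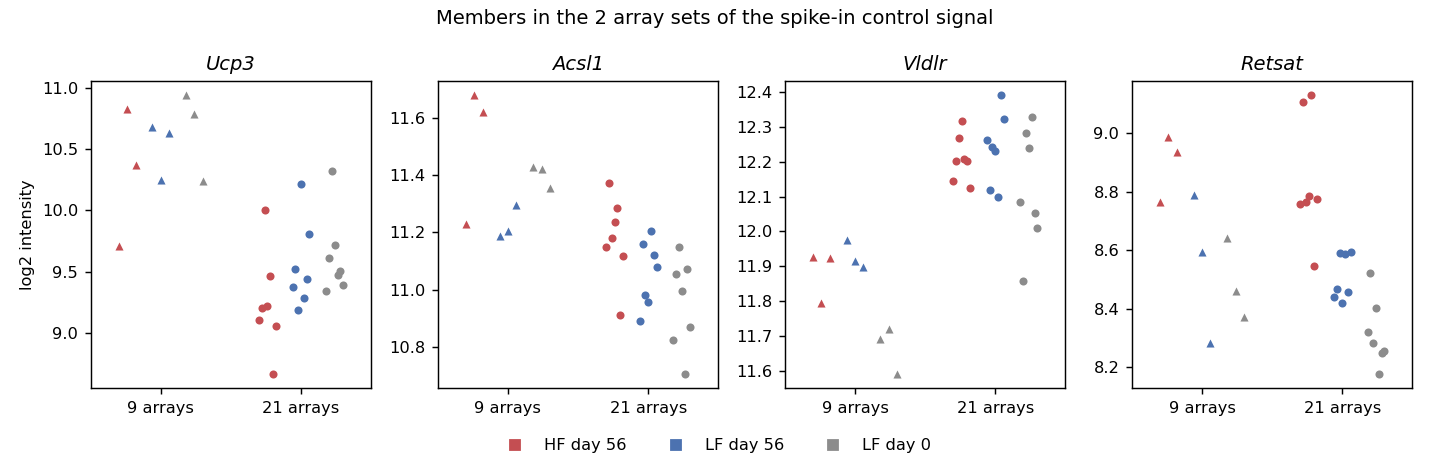
Log2 intensity of Ucp3, Acsl1, Vldlr and Retsat on the 9 arrays of high spike-in 5′ to 3′ signal and on the other 21, coloured by group. Ucp3 and Acsl1 are higher and Vldlr lower on the 9 arrays on average, and Retsat is shown as a member that did not pass this test.

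LF day 56 against LF day 0 covers the 56 days on the low fat diet and shares its LF day 56 arrays with the comparison of the diets. By limma, 0 of 10 members passed, against 0.225% of all entries higher and 0.625% lower, and 1 member had an unadjusted p below 0.05, as had 10.1% of all entries. That was Retsat, higher by 0.15 ± 0.07 (log2, SE, adjusted p = 0.442, 9 of 10 arrays above the LF day 0 mean). Acot2 differed by 0.19 (adjusted p = 0.527), Ucp2 by -0.41 (adjusted p = 0.529) and Vldlr by 0.16 (adjusted p = 0.570) in the same limma fit. The median over the members was 0.03, against 0.001 over all entries.

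HF day 56 against LF day 0 combines diet and age and shares the HF arrays on which the members were selected. Retsat and Acot2 rose, 2 of 10 members, against 0.783% of all entries higher and 0.807% lower, where no member lay. Retsat was higher by 0.49 ± 0.07 (log2, SE, limma adjusted p = 5.34e-05) and Acot2 by 0.39 ± 0.10 (limma adjusted p = 0.0306), each on 10 of 10 arrays. Acot2 lost this call when any of 9 single arrays was left out, with differences between 0.35 and 0.39, and both lost it without the S100a8-high arrays (Retsat 0.39, Acot2 0.14). Mlycd differed by 0.25 ± 0.07 (adjusted p = 0.0913, limma) with 10 of 10 arrays above. Pdk4 differed by -0.16 (limma adjusted p = 0.434) and Ucp3 by -0.37 (limma adjusted p = 0.671).

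**Figure D4:**
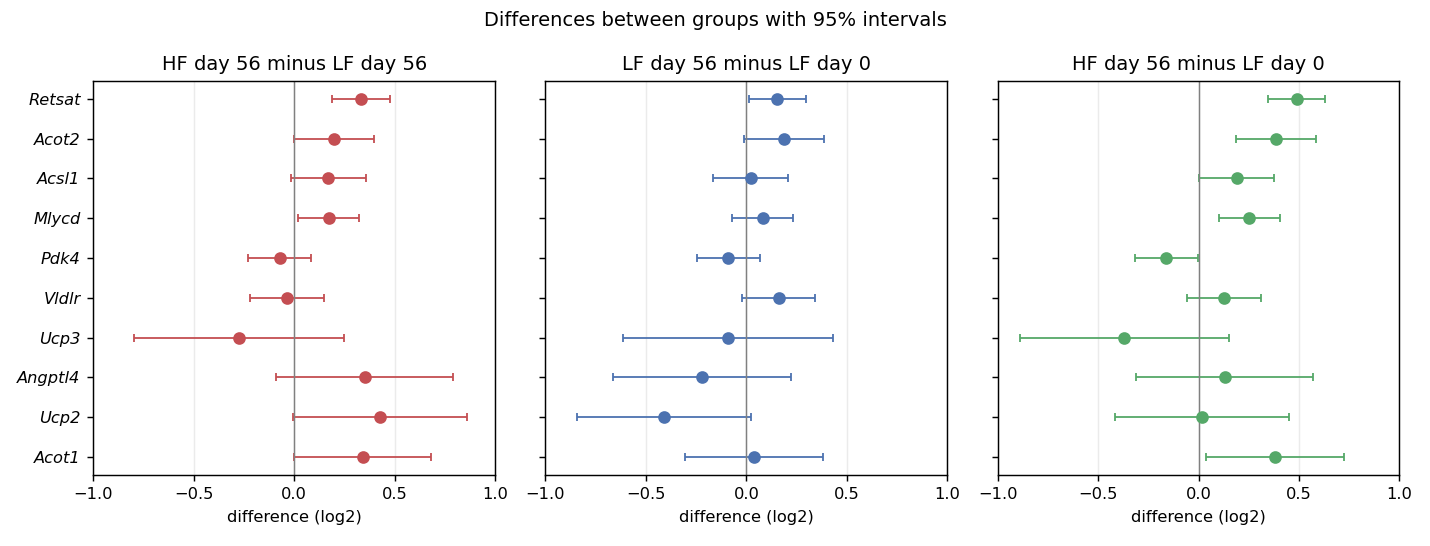
Differences between groups (log2, dots) with 95% intervals from the limma fit, for the 10 members in 3 comparisons. Retsat lies at 0.33, 0.15 and 0.49 from left to right, and the intervals of Ucp3, Angptl4, Ucp2 and Acot1 are the widest.

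Between mice of a group, Pdk4 and Ucp3 varied together. Within the 21 arrays, with each group centred on its mean, their Pearson r was 0.69 and Spearman rho 0.72 (permutation p = 0.00034, adjusted p = 0.0122 over 36 pairs of the 9 members above background), the 1 pair that passed. Without the 2 arrays farthest from the median of Pdk4, r was 0.54, and no pair then passed the adjustment. Within the 9 arrays r was 0.75 (exact permutation p = 0.0417). Acsl1 and Retsat had r = 0.64 in the 21 arrays (permutation adjusted p = 0.0533) and 0.23 in the 9. Ucp3 and Angptl4 had r = 0.94 in the 9 arrays and 0.08 in the 21.

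Of 18 relations between members and marker levels, 1 passed in the 21 arrays, a negative one between adipocyte markers and Ucp3 (r = -0.67, permutation adjusted p = 0.0277). Its Spearman form did not pass (permutation adjusted p = 0.0718). The Pearson r was -0.42 without the 2 arrays farthest from the median adipocyte level (permutation adjusted p = 0.667). Within the 9 arrays it was 0.33 (exact permutation p = 0.449).

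**Figure D5:**
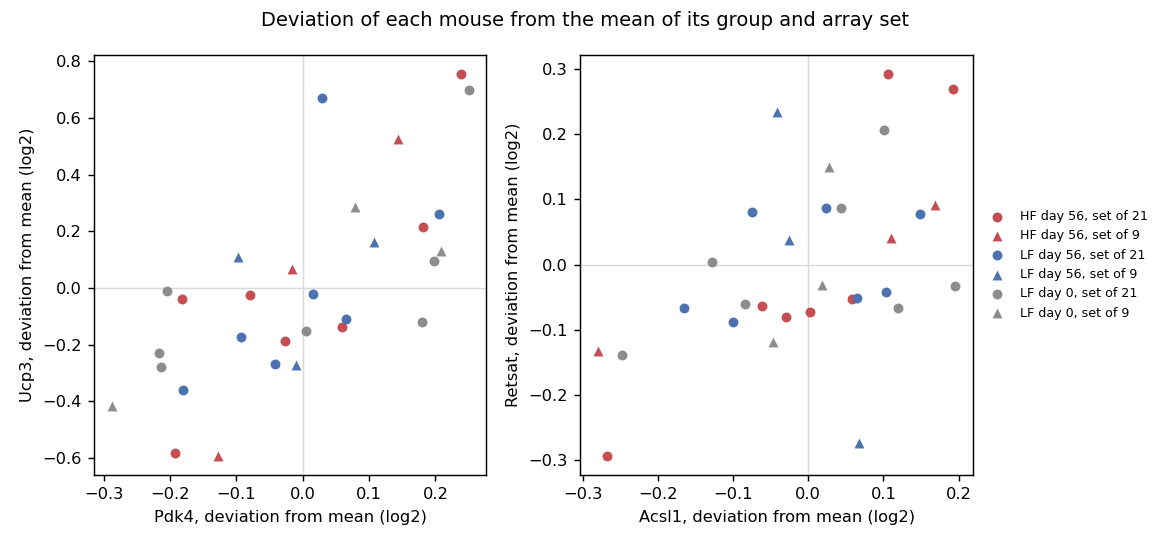
Deviation of each mouse from the mean of its group and array set (log2), for Pdk4 against Ucp3 and for Acsl1 against Retsat. In the circles, the 21 arrays on which r was computed, Pdk4 and Ucp3 rise together with r = 0.69.

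The entries most like each member across all 30 arrays, after removing group and array set, were sought among 6432 named entries. Closest to Retsat was Got1, cytosolic aspartate aminotransferase (r = 0.74). Got1 was also among the closest 3 to Acsl1 (r = 0.82), after Gabarapl1 (r = 0.85) and Mb, the myoglobin gene (r = 0.82). Closest to Pdk4 was Aldh9a1 (r = 0.73), to Ucp3 Atp6v1b2 (r = 0.84), to Ucp2 Blvrb (r = 0.90) and to Angptl4 Igf1 (r = 0.69). Closest to Acot2 was Brpf1 (r = 0.75), to Mlycd Slc25a34 (r = 0.65) and to Vldlr Asb5 (r = 0.76). These correlations are descriptions over arrays that share groups and processing.

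Other PPAR target genes are set beside the members. Their list, too, was chosen with earlier results of these data known, so its counts and calls are descriptions and no independent support. Between the diets 0.0243% of all entries were called higher and 0% lower by limma, and no call is read for the 10 members, which were chosen on that comparison. Of 29 measured of 30 listed, 2 rose on the high fat diet against LF day 56 by limma, Decr1 (0.38 ± 0.06, adjusted p = 0.00954) and Ech1 (0.41 ± 0.08, adjusted p = 0.0383), both enzymes of the oxidation of unsaturated fatty acids. At least 9 of 10 HF arrays were above the LF day 56 mean in 14 of the 29 and below it in 2, against 3.25% and 3.1% of all entries, and the median difference was 0.16. Against LF day 0, 14 of the 29 rose in HF day 56 muscle and 1, Cpt1a, fell, with a median of 0.31. Cpt1a, the liver form of the carnitine transferase, lay near background, at geometric means of 17.4 in HF day 56 and 20.9 in LF day 0 muscle. Between LF day 56 and LF day 0, Acadm alone passed (0.23 ± 0.05, limma adjusted p = 0.0141).

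Few genes that work with the members passed, in lists also chosen with earlier results of these data known. Of 11 measured genes of the pyruvate dehydrogenase gate, on which Pdk4 acts, 0 passed between the diets by limma, with a median of -0.03. Against LF day 0 only Pdp2, a phosphatase of the complex at background level, was lower in HF day 56 muscle. Of 14 other acyl-CoA thioesterases and synthetases, 0 passed between the diets, and Acot7 fell against LF day 0 (-0.30 ± 0.07, limma adjusted p = 0.0204). Of 4 malonyl-CoA control genes, 0 passed between the diets, and Cpt1a fell against LF day 0. Of 9 genes of the PPARs and their partners, 0 passed in any of the 3 comparisons by limma. Of 8 lipoprotein uptake partners, 0 passed between the diets, and against LF day 0 Cd36, a fatty acid transporter, rose (0.41 ± 0.07, limma adjusted p = 0.000506). Between LF day 56 and LF day 0, 0 genes of these 5 lists passed by limma.

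PPARs bind paired copies of the hexamer AGGTCA spaced by a single base, a direct repeat 1. RefSeq promoters of the mouse build GRCm38.p6, 300 bases around a gene's start, mostly upstream of it, were found for 9 of the 10 members, 11 promoters in all. A direct repeat 1 with at most 2 mismatches on either strand was found in 1 of the 11, that of Ucp3, against 3.86% of 32817 promoters. The exact hexamer, searched on both strands and allowed to overlap the repeat, was likewise in 1 of the 11, with 2 copies in Ucp3, against 16.3% of promoters. A match is a description of letters and not a bound site. The 3 promoters below are of the pair that varied together and of Retsat, with the repeat in capitals.
Ucp3, chr7:100472741-100473040, plus strand: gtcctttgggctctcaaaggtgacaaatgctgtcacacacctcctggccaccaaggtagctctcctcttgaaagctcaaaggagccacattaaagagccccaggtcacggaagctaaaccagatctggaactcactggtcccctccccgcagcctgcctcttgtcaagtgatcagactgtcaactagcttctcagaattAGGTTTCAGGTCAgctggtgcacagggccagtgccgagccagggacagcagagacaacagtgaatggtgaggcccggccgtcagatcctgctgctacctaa
Pdk4, chr6:5496229-5496528, minus strand: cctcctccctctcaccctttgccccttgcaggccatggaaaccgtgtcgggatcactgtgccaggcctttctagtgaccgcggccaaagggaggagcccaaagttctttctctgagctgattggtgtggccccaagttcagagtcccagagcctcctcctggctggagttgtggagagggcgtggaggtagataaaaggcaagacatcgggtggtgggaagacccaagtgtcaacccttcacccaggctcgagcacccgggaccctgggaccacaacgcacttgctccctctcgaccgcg
Retsat, chr6:72598352-72598651, plus strand: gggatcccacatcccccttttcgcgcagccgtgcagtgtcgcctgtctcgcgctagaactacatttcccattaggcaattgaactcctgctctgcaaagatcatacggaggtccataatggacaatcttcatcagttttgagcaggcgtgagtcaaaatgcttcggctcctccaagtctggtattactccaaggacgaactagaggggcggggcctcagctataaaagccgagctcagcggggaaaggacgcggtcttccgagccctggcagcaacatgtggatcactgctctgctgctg
The repeat in Ucp3 begins 51 bases before the start of the gene. Ucp3 and Ucp2 are neighbours on chromosome 7 with no annotated gene between them, and the Ucp2 promoter held no match.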

How the data were processed

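The deposited table holds 1 linear intensity per gene and array, made with GCRMA per the submitters' processing notes; no version or build is given in the sources used here. Values ran between 1.2 and 30599. Their log2 was taken with a pseudocount of 0. After removal of 64 control probe sets, 16475 entries were fitted with limma 3.58.1 in R 4.3.3, all 30 arrays in 1 fit with group as the factor, and two-sided p-values were adjusted by Benjamini-Hochberg over all entries (threshold 0.05). The number of arrays limits the precision, and each array is 1 mouse. The array sets were split at the widest gap of the spike-in index (0.21, the next gap being 0.14, log2). Correlations used 100000 permutations within groups. Replicate numbers did not pair the arrays: each mouse is numbered separately in the labels, and 3, 2 and 4 of 10 same-numbered pairs correlated above 0.1 in the 3 comparisons. The rule named all members, listed genes past the threshold or of the 2 smallest p per list, and the 3 closest entries to each member; some of these are given as counts or are not reported here. Ucp2 and Acsl1 were named through their gene numbers in RefSeq. The members and lists were chosen with earlier results of these data known.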

Additional observations from a re-analysis of the deposited data

How the results depend on the processing

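The count of 4 members answering the diet depends on how it is counted when arrays are removed. The share of HF arrays required, 0.9, means all of 9 when 1 is left out, and by it the count ranged between 1 and 5 over single left-out arrays: it was 1, Retsat, for 8 of the 10 HF arrays. Once this had been seen, a second count was added that allows 1 HF array on the other side, as 9 of 10 does. By that looser count it ranged between 4 and 5 over left-out HF arrays, and Retsat, Acot2, Mlycd and Acsl1 were in each. These 4 could not drop out of it, because leaving out an HF array does not move the LF day 56 mean, so this is no check. The set of 21 arrays alone gave 2 by the share and 7 by the looser count, Ucp3 below among them. That set holds 7 HF arrays, so the looser count is a weaker rule there than 9 of 10. The share of all entries that meet it was not computed, and the 7 are not read as a result. The replicate block gave 2 members answering and 1 called against LF day 0, and leaving out arrays with S100a8 above 100 gave 2 and 0, the 2 being Retsat and, lower on the high fat diet, Ucp3. Membership also changed with all arrays kept: the spike-in set as a block removed Acsl1 and added Acot1, median centring added Acot1, the slow fibre covariate removed Acsl1 and added Ucp2, and the adipocyte covariate, and log2 S100a8 as a covariate (added after seeing the data), removed Acsl1. For the call against LF day 0, the count was 1 with only the compared groups, 1 in the set of 21 arrays, 1 with the adipocyte covariate and 0 in the set of 9, and ranged between 1 and 3 over left-out arrays. No member passed between LF day 56 and LF day 0 in any setting. Without the 2 arrays farthest from the median, 0 member pairs passed in place of 1. The set of 9 has a smallest exact permutation p of 0.00463, too large to pass over 36 pairs, so no count is given for it.

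Signs turned in values that were mostly not called. Between the diets, Acsl1 was -0.013 and Vldlr 0.067 without the S100a8-high arrays, Vldlr was 0.0076 with the adipocyte covariate and up to 0.00056 over single left-out arrays, and Pdk4 was 0.014 in the set of 9. Between LF day 56 and LF day 0, without those arrays, Ucp3 was 0.55, Acot1 -0.19, Acot2 -0.10 and Vldlr -0.062; in the set of 9, Acot1 was -0.11 and Acsl1 -0.17; with the slow fibre covariate, Acot1 was -0.029 and Acsl1 -0.014; with the adipocyte covariate, Ucp3 was 0.000712. Between HF day 56 and LF day 0, Ucp2 was -0.42 and Angptl4 -0.41 in the set of 9, Ucp2 was -0.032 without the S100a8-high arrays, -0.026 with the adipocyte covariate and -0.036 with the slow fibre covariate, and Angptl4 was -0.19 with the adipocyte covariate. Over single left-out arrays, Ucp2 ranged between -0.072 and 0.14 (HF day 56 against LF day 0), Acot1 ranged between -0.0018 and 0.14 (LF day 56 against LF day 0), Acsl1 ranged between -0.022 and 0.059 (LF day 56 against LF day 0), Ucp3 ranged between -0.19 and 0.019 (LF day 56 against LF day 0). The causes were not tested.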
